A study of Mus musculus with 6 samples.

Results

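*Nr4a3*-Blue+Red+ CD4+ T cells of mice given the isotype control antibodies were profiled here on their own, as the state of a re-challenged CD4+ T cell in which neither PD1 nor Lag3 was blocked. They are the 2 isotype samples of the 6 in the series, chosen by their label, and no comparison with the anti-PD1 or anti-Lag3 samples was made. The mice were Tg4 Tiger *Nr4a3*-Tocky animals, which carry a transgenic T cell receptor (TCR) for a myelin basic protein (MBP) peptide, a GFP reporter at *Il10* and a fluorescent Timer protein driven by *Nr4a3*. All mice of the series received 80 μg of the peptide without adjuvant, were rested for 24 h and then received 800 μg of antibody, here a pool of rat IgG1 and rat IgG2a, 30 min ahead of 8 μg of peptide. Splenic cells that held both colors of Timer were sorted 4 h later. The study used mice of both sexes, and the labels give neither the age nor the sex behind a library. A monoclonal TCR and a gate on the Timer limit what the cells can stand for: only cells that had signaled through *Nr4a3* were sequenced.

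Timer fluoresces blue when newly made and turns red as it matures, so a cell with both colors has made the protein recently and also some time before. When a TCR binds its peptide, kinases of the Src and Syk families signal through the adaptors LAT and SLP-76 to calcium and NFAT, to NF-κB and, through MAP kinases, to AP-1, and NR4A and EGR factors are among the earliest genes induced. An activated CD4+ T cell also grows, makes ribosomes, turns up glycolysis, displays the high affinity IL-2 receptor and divides, and with time takes on the factors and cytokines of a helper or regulatory lineage.

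The 2 libraries held 2210513 and 2502445 reads, of which the ribosomal RNA-like transcript *Gm42418* and the mitochondrial ribosomal RNAs *mt-Rnr1* and *mt-Rnr2* took 28.3% in isotype 1 and 25.8% in isotype 2. These 3 genes were left out, and levels are counts per 1000000 reads (CPM), scaled to the remaining 1584960 and 1856285 reads. A gene was called detected with more than 3 reads in both libraries. A total of 3 reads amounts to 1.89 CPM in isotype 1 and 1.62 CPM in isotype 2, and these values are called the detection limit. Where a pair of values is given, isotype 1 comes first. Of 47643 gene identifiers, 14220 had a read in either library and 9793 were detected, 9038 of them protein coding. Across the detected genes log2 CPM of the libraries correlated with Pearson's r = 0.963 and Spearman's rho = 0.966 (across genes, which are not independent replicates), and 91.7% of the genes lay within 2-fold. The libraries still differed by more than sampling noise. A two-sided exact binomial test on the reads of each gene, which compares these 2 libraries and no conditions, called 627 of 9793 genes (6.4%) at a Benjamini-Hochberg adjusted p under 0.05. Of these, 308 were higher in isotype 2 and 319 in isotype 1, and 1984 genes had an unadjusted p under 0.05. The spread fell with the level. The median coefficient of variation between the libraries was 28.0% for genes under 10 CPM, 14.1% from 10 to 100 CPM, 6.37% from 100 to 1000 CPM and 3.49% above. edgeR put the common biological coefficient of variation at 12.3%. The study's methods describe sorts from replicate mice that were each stained apart, and a replicate set, left out by the study, that had gone through sorting and preparation together. The labels tie neither library to a mouse or a sort, so mouse, sort and technical spread cannot be told apart here.

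The most abundant transcripts belonged to the cytoskeleton, the nucleolus, chaperones, mitochondria and translation. *Actb*, which encodes β-actin, led with 20440.3 CPM in isotype 1 and 21394 CPM in isotype 2. *Ncl*, which encodes the nucleolar protein nucleolin, followed with 12691 and 12205 CPM, and *Hsp90ab1*, a cytosolic HSP90 chaperone, with 8924 and 8633 CPM. Each was above the next in both libraries. Next stood the mitochondrial *mt-Nd2* and *mt-Nd1*, with 7923 and 7859 CPM for *mt-Nd2*, and 6736 and 7399.7 CPM for *mt-Nd1*, and *Pabpc1*, the poly(A) binding protein, with 6233 and 6378 CPM. The other members of the 25 highest genes fell into a few kinds. The 9 cytosolic ribosomal protein genes among them were led by 4044 and 4332 CPM for *Rps20*, and 4403 and 3929.9 CPM for *Rplp1*, which overlapped between libraries. *Npm1*, the nucleolar chaperone nucleophosmin, stood at 4619.7 and 3849 CPM, and the RNA binding proteins *Serbp1* and *Ybx1* at means of 5153 ± 90.5 and 2607 ± 55.6 CPM (SD, n = 2). The genes of translation initiation and elongation factors had 2598 and 2555 CPM for *Eif3a*, and 2392 and 2632 CPM for *Eef2*. *Tmsb4x*, which encodes the actin-sequestering thymosin β4, stood at 2883 and 2767 CPM. The one surface receptor in this group was *Ptprc*, which encodes the phosphatase CD45, at 2679 and 2675 CPM. Of the 25 steps from each of these genes to the next in rank, 12 were separated in both libraries. Neighbors could not be ranked from *Npm1* to *mt-Cytb*, from *Rpl23a* to *Rps14* and from *Ptprc* to *Ddx21*.

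Reads were spread over many genes. The 10 highest genes held 8.21% and 8.33% of the reads, the 50 highest 17.8% and 17.9%, and 574 genes made up 50% of the mean profile. A mean above 1000 CPM was reached by 111 detected genes, above 100 CPM by 2111 and above 10 CPM by 7757. The 78 cytosolic ribosomal protein genes, 76 of them detected (not *Rpl3l* and *Rpl10l*), took 9.42% and 9.05% of the reads, and the mitochondrial chromosome without its ribosomal RNAs took 2.74% and 2.92%.

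**Figure D1:**
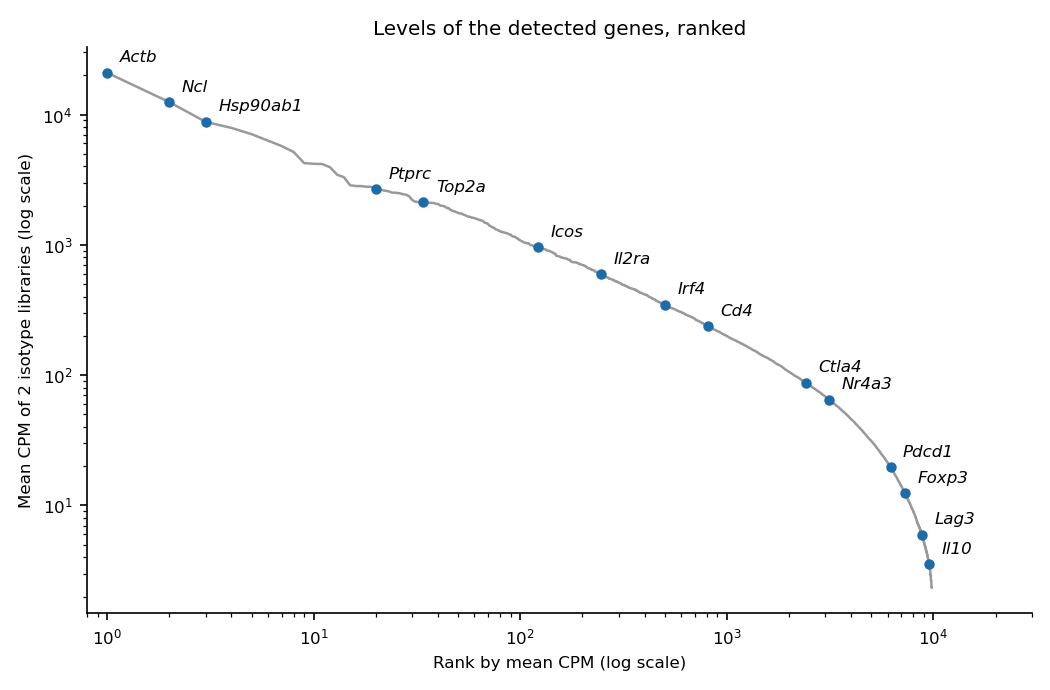
Mean CPM of the 2 isotype libraries (y axis, log scale) against rank (x axis, log scale) for the 9793 detected genes, with 15 genes marked. Among all genes, undetected ones included, *Actb* led, *Icos* ranked 122, *Cd4* 811, *Nr4a3* 3132 and *Il10* 9681. The x axis counts detected genes only, so low genes can be drawn at a smaller rank than these.

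The libraries were primed with oligo(dT), which pairs with the poly(A) tail and can also pair with A-rich stretches inside a transcript. A read then marks a priming event, so levels were not divided by length: Spearman's rho of mean CPM was 0.032 with transcript length and 0.0205 with coding length across 9040 detected genes with an annotated coding sequence. With the largest number of A bases in any 20 bases of the coding sequence rho was 0.242, and 0.248 without the ribosomal protein genes. With the same count of T bases it was 0.0326. The median level was 26.3 CPM for the 3637 genes with at most 11 A, 36.9 CPM for the 3566 with 12 or 13, 65.5 CPM for the 1622 with 14 or 15, and 141 CPM for the 215 with 16 or more. The order was the same in each band of coding length. In coding sequences of 3000 bases or more the medians were 22.7, 37.4, 80.5 and 169 CPM, and under 900 bases they were 33.8, 47.8, 66.4 and 76.9 CPM. At least 14 A were found in 20.3% of the 9040 genes and in 37 of the 100 most abundant. For T the medians of the bins with at least 20 genes rose in order in the longest band alone, from 40.4 to 59.1 and 64.9 CPM. These values are descriptions across genes of the same libraries, and the part that priming inside transcripts had in the levels was not tested.

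**Figure D2:**
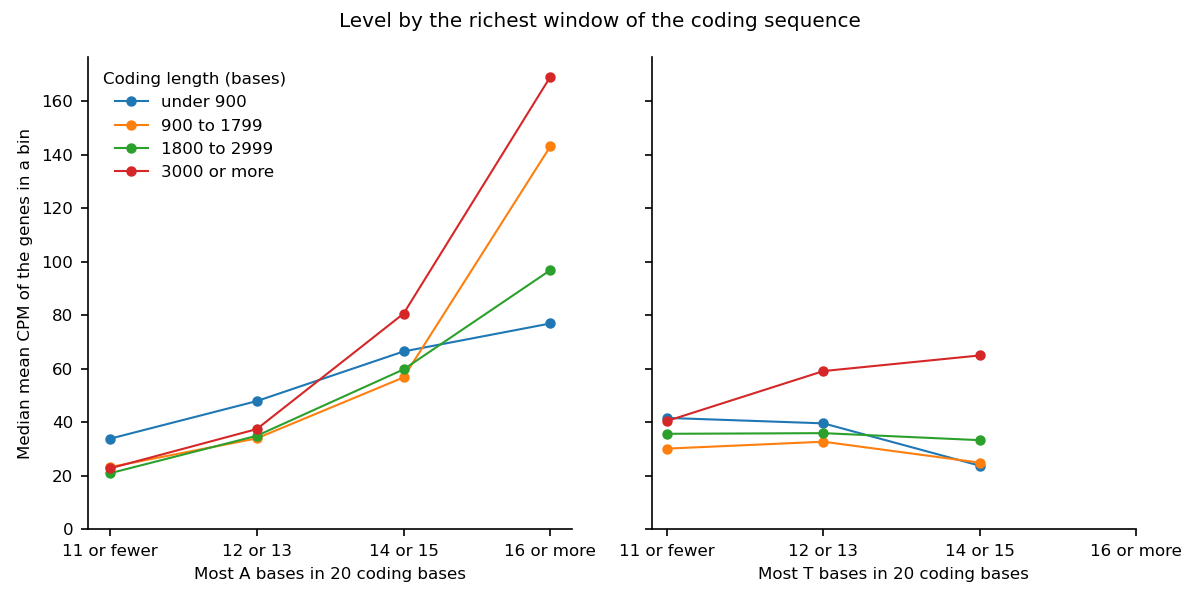
Median over genes of mean CPM (y axis) by the largest number of A (left) or T (right) bases in any 20 bases of the coding sequence (x axis), with a line per band of coding length and bins under 20 genes not drawn. The medians rose from the lowest to the highest A bin in all 4 bands, from 22.7 to 169 CPM in the longest, and with the T bins drawn they rose in order in the longest band alone.

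The stretches themselves show how the abundant genes differ. Given here are the A-richest 20 bases of the coding strand (GENCODE annotation of GRCm38, longest coding sequence of each gene), with each A in capitals. *Eif2s2*, *Nucks1*, *Dek*, *Smc4* and *Hsp90ab1* had the most A among the highest genes shown, *Ptprc* and *Top2a* are the CD45 and topoisomerase IIα genes, and *Actb*, *Tuba1b* and *Rps21* were abundant without such a stretch.
Eif2s2: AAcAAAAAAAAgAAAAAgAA
Nucks1: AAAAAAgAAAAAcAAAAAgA
Dek: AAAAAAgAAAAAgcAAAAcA
Smc4: AAAgAAgAAAAAAAAttAAA
Hsp90ab1: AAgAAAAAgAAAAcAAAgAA
Ptprc: AcAtAAAAAAgAAAAAgcAA
Top2a: AAAAtAAAcctAAAAAAgAA
Cd3e: AActtAAAAtgggAAAAAAA
Icos: AAAAAAgAAAtAcggAtccA
Tnfrsf4: ggAAgtgAActcAAgcAgAA
Actb: tAAggccAAccgtgAAAAgA
Tuba1b: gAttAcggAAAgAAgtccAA
Rps21: AAtggccAgtttAAAAcctA

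These windows held 17 A in *Eif2s2* and *Nucks1*, 16 in *Dek*, *Smc4* and *Hsp90ab1*, 15 in *Ptprc* and *Top2a*, 13 in *Cd3e*, 12 in *Icos*, 9 in *Tnfrsf4*, *Actb* and *Tuba1b*, and 8 in *Rps21*. *Eif2s2*, a subunit of the initiation factor eIF2, stood at 1667 and 1742 CPM. *Nucks1*, a chromatin protein, stood at 1773 and 1701 CPM. *Actb*, the highest gene of all, held 9 A. *Gapdh*, the glycolytic enzyme often taken as a reference, had 11 A and stood at 101 and 66.3 CPM. Whether its reads were lost to near-identical copies in the genome was not tested.

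Ribosomal protein mRNAs often begin with a C followed by a run of pyrimidines, a 5′ terminal element through which growth signals act on their translation. A C at the annotated start followed by at least 4 pyrimidines (C or T, read on the strand of the gene) was found in 13 of the 56 detected ribosomal protein genes with a RefSeq start (23.2%), against 2.98% of all 7280 detected protein coding genes with one and 2.51% of all 32851 starts in that table. The 4 examples below, from 10 bases before the start to base 15 of the transcript (RefSeq, GRCm38.p6), carry the run in capitals.
Rpl14, chr9:120571507-120571531, plus strand: ggccctctctCTTCTCgctgagcgc
Rps15a, chr7:118116133-118116157, minus strand: tttctgccatCTTCCCTCgccggtg
Rps10, chr17:27635230-27635254, minus strand: gcgcacgcccCTTCCTTTCCagcct
Rpl35, chr2:39005117-39005141, minus strand: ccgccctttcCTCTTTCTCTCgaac

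Their levels were 1963 and 1649.5 CPM for *Rpl14*, 1198 and 1194 CPM for *Rps15a*, 934 and 921 CPM for *Rps10* and 912 and 937 CPM for *Rpl35*. A gene with no run at its annotated start is only one in which these letters were not found at that base.

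The mitochondrial mRNAs were uneven. A complex I subunit and cytochrome b had 5264 and 6188 CPM for *mt-Nd4*, and 3770.4 and 4101 CPM for *mt-Cytb*, and *mt-Co1*, the first cytochrome oxidase subunit, had 1209 and 1281 CPM. *mt-Nd5* stood at 2252 and 2016 CPM and *mt-Nd6*, encoded on the opposite strand, at 72.6 and 76.5 CPM. *mt-Co2*, *mt-Co3*, *mt-Atp6*, *mt-Atp8* and *mt-Nd4l* were listed at 0 reads in both libraries, and *mt-Nd3* had 18 and 0 reads. Apart from *mt-Nd6* these genes are cut from the same polycistronic transcript, so a 0 here was not read as absence, and whether their reads were lost in alignment or counting was not tested. Low values of genes with near-identical copies are uncertain in the same way. The paired chaperone genes had 0 and 1 reads for *Hspa1a*, and 0 and 1 reads for *Hspa1b*, and *Actg1*, whose coding sequence is close to that of *Actb*, had 101 and 32 reads.

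The label was checked against the defining genes of CD4+ T cells, and all 16 of them were detected. *Cd4* itself (chromosome 6, 124864692 to 124888221, GRCm38) had 233 CPM in isotype 1 and 239 CPM in isotype 2. *Icos*, the costimulatory receptor of activated CD4+ T cells (chromosome 1, 60977927 to 61000320), had the highest mean of the 16 with 991 and 931 CPM and ranked 122 of all genes, but overlapped with *Trbc2*, which was above it in isotype 2. *Irf4*, a factor whose level follows TCR signal strength (chromosome 13, 30749226 to 30766976), had 362 and 330.2 CPM. *Tnfrsf4*, which encodes OX40 (chromosome 4, 156013843 to 156016612), had 324 and 303 CPM. For these 4 genes no difference between the libraries passed the exact binomial test (adjusted p = 0.938, 0.302, 0.394 and 0.599). *Zbtb7b*, the CD4 lineage factor ThPOK, was the lowest of the list at 28.4 and 19.4 CPM.

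Of the TCR itself, the constant region genes had 866 and 1003 CPM for *Trbc2*, 583 and 513 CPM for *Trbc1*, and 480.1 and 488 CPM for *Trac*. *Trbc1* and *Trbc2* are close copies, so reads may be split between them. The signaling chains of the complex followed, with *Cd247* (ζ) at 289.6 and 325 CPM, *Cd3d* at 271 and 328 CPM, *Cd3e* at 217 and 258 CPM and *Cd3g* at 62.5 and 79.2 CPM. Variable and joining segments, which lie upstream of the constant region, gave few reads. *Trav6n-6* held 27 and 26 of the 33 and 28 reads of *Trav* segments, and *Traj18* held 54.7% of the 426 reads of *Traj* segments. *Trbv* segments had 12 reads in all, with 0 and 9 for *Trbv21*, and 1 and 1 for *Trbv13-2*. Which of these segment reads came from the transgenic TCR was not tested.

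Genes of other cells were detected unevenly from list to list. For scale, 9038 of all 21620 protein coding genes were detected. Mast cell and basophil genes (5 of 5) and platelet genes (5 of 5) had no read in either library. None of 9 dendritic cell genes and none of 6 plasma cell genes was detected, and of 10 NK and innate lymphoid genes only *Tyrobp* was, with 4 and 4 reads. *Prf1* and *Ncr1* had none. Of 14 B cell genes 7 were detected, led by *Ighm* at 110.4 and 128 CPM and *Igkc* at 24 and 27.5 CPM. *Cd79a* had no read. The summed level of the list was 177 and 193 CPM. Macrophage and monocyte genes were detected for 10 of 15, from *Lyz2* at 17 and 23.2 CPM and *C1qa* at 17 and 15.6 CPM down, and summed to 129 and 101 CPM. Class II genes, 5 of 7 detected, summed to 68.1 and 93.2 CPM, with *Cd74* at 21.5 and 20.5 CPM. Red cell genes, 4 of 7 detected, summed to 71.3 and 60.3 CPM. Neutrophil genes were at 12 and 32.9 CPM, and the sum in isotype 2 was mainly *S100a8* and *S100a9*, with 7 and 27 reads for *S100a8*, and 9 and 22 reads for *S100a9*. For comparison, the 16 CD4 T cell genes summed to 5635 and 5580 CPM. *Cd8b1* was present at 66.2 and 55.5 CPM, while *Cd8a* had 11 and 17 reads. *Ddx3y*, *Kdm5d*, *Eif2s3y* and *Uty* were among 5 detected Y chromosome genes, and *Xist* had 0 and 7 reads. The Y chromosome held 0.0379% and 0.0276% of the reads.

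Between receptor and nucleus, nearly every part of the pathway was detected: 29 of 31 genes of proximal signaling, 21 of 22 of the calcium and NFAT pathway and 26 of 26 of NF-κB. The kinases had 422 and 375 CPM for *Lck*, 380.5 and 335 CPM for *Fyn*, and 148 and 129.8 CPM for *Zap70*. *Lck* and *Fyn*, of the Src family, were thus above *Zap70* in both libraries. The adaptor genes of LAT and SLP-76 had 289.6 and 272 CPM for *Lat*, and 234 and 225 CPM for *Lcp2*, and the phospholipase *Plcg1* had 103 and 95.9 CPM. Of the 29 detected genes of proximal signaling 6 differed between the libraries by the exact binomial test, 4 higher in isotype 2 and 2 in isotype 1, against 6.4% of all genes tested. *Rasgrp1*, *Sos1* and *Pag1* were higher in isotype 2 (adjusted p = 0.00992, 0.000409 and 0.0392), and *Coro1a* and *Cd2* in isotype 1 (adjusted p = 0.0106 and 0.00557). Of the NFAT factors *Nfatc1* was the highest with 280.1 and 327 CPM, above *Nfatc3* with 219.6 and 233 CPM and *Nfatc2* with 23.3 and 37.2 CPM. The store-operated channel *Orai1* had 62.5 and 56.6 CPM. In the NF-κB pathway the inhibitor *Nfkbia*, itself an NF-κB target, led with 589 and 699 CPM. The subunits had 179 and 149.8 CPM for *Nfkb1*, 85.2 and 69.5 CPM for *Rel*, and 58.7 and 61.4 CPM for *Rela*. *Tnfaip3*, which encodes the A20 brake, stood at only 7.57 and 2.15 CPM.

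*Nr4a3*, whose regulatory region drives the Timer (chromosome 4, 48045153 to 48086447), had 68.8 CPM in isotype 1 and 60.3 CPM in isotype 2 and a rank of 3132. *Nr4a1*, which encodes Nur77, had 70.7 and 44.2 CPM and was higher in isotype 1 (adjusted p = 0.0273, exact binomial test), and *Nr4a2* had 12 and 14.5 CPM. *Nr4a3* and *Nr4a1* overlapped between libraries and cannot be ranked. Whether reads of the reporter transgene were counted in *Nr4a3* is not given in the sources used here. *Egr1* had 59.9 and 76 CPM, while *Egr2* had 4 and 14 reads, *Egr3* none and *Egr4* 0 and 1 reads. The EGR corepressors *Nab1* and *Nab2* were present, with 100.3 and 104 CPM for *Nab1*, and 53.6 and 83.5 CPM for *Nab2*. In the AP-1 family *Atf4*, the factor of the amino acid response, was far above the rest at 835 and 794 CPM, followed by *Bach2*, a repressor of effector genes, at 271 and 243 CPM. Other members had 148 and 154 CPM for *Jund*, 143 and 111 CPM for *Junb*, and 55.5 and 59.3 CPM for *Batf*. *Fos* had 12 and 31.8 CPM and was higher in isotype 2 (adjusted p = 0.00503, exact binomial test), while *Fosl1* and *Atf3* were under the detection limit, with 1 and 0 reads for *Fosl1*, and 3 and 2 reads for *Atf3*.

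Of 29 genes that feed back on TCR signaling, 26 were detected. The ubiquitin ligases had 291 and 331 CPM for *Cbl*, and 189 and 133 CPM for *Cblb*, and the diacylglycerol kinases had 162 and 197 CPM for *Dgkz*, and 156 and 160.0 CPM for *Dgka*. The phosphatases of proximal kinases had 305 and 295 CPM for *Ptpn6*, and 99.7 and 94.3 CPM for *Ptpn22*. The MAP kinase phosphatases were unequal, with 168 and 199 CPM for *Dusp2*, and 90.2 and 83.5 CPM for *Dusp5*, against 6.31 and 6.46 CPM for *Dusp1*. *Cd69*, the early surface marker of activation, stood at 96.5 and 80.8 CPM, and *Rnf128*, the anergy ligase GRAIL, had 2 and 0 reads.

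No single helper lineage factor stood alone. *Runx3*, which acts in TH1 and cytotoxic cells, had 308 and 346 CPM, and *Maf*, which drives *Il10* and *Il21* in several helper types, had 283 and 343 CPM. Factors that act in TH17 cells had 514 and 429.9 CPM for *Hif1a*, and 184 and 108 CPM for *Rora*. *Tbx21*, which encodes the TH1 factor T-bet, had 67.5 and 103 CPM. *Gata3*, the TH2 factor, had 29 and 63.6 CPM. *Bcl6*, the factor of follicular helper cells, had 15.1 and 7.0 CPM, *Eomes* had 5 and 7 reads, and *Zbtb16*, the factor of NKT cells, had none. *Foxp3*, which defines regulatory T cells, had 5 and 40 reads, or 3.15 and 21.5 CPM (95% exact Poisson intervals 1.02 to 7.36 and 15.4 to 29.3 CPM, which cover counting error only). It overlaps *Flicr* and *Ccdc22* in the annotation.

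The libraries parted often in this list. Of its 19 detected genes 8 differed by the exact binomial test, against 6.4% of all genes tested. *Foxp3*, *Gata3*, *Tbx21* and *Maf* were higher in isotype 2, by 2.77, 1.13, 0.62 and 0.28 on the log2 scale (adjusted p = 0.000134, 0.000435, 0.0126 and 0.0366). *Rora*, *Stat4*, *Stat3* and *Hif1a* were higher in isotype 1, with log2 ratios of isotype 2 over isotype 1 of -0.77, -0.63, -0.31 and -0.26 (adjusted p = 1.86e-06, 0.0114, 0.00425 and 0.0126). Of the 18 steps in the order of these genes, 6 were separated in both libraries, such as *Maf* above *Rora* and *Gata3* above *Zbtb7b*. *Runx3* and *Maf* overlapped. In a bulk sample more cells with a transcript and more transcript per cell cannot be told apart.

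A list of 26 factors of naive and memory cells also held factors of effector cells, such as *Prdm1*, *Id2* and *Zeb2*. Of the 26, 25 were detected, where 9038 of all 21620 protein coding genes were. The highest members of the list were among the highest transcription factors of all lists. *Satb1*, a chromatin organizer of T cells, led with 1443 and 1335 CPM, followed by *Foxp1*, which holds T cells quiescent, at 844 and 888 CPM. Next came 569.7 and 585 CPM for *Ikzf1*, and 377 and 359.9 CPM for *Bcl11b*. The genes of TCF-1 and LEF-1, which sustain naive and memory T cells, had 285 and 290.4 CPM for *Tcf7*, and 199 and 233 CPM for *Lef1*. *Klf2*, which keeps resting cells in circulation, was lower at 22.1 and 28 CPM, and its target *S1pr1*, the exit receptor of lymphoid tissue, had 5.68 and 8.62 CPM. *Il7r*, the IL-7 receptor, had 22.1 and 12.4 CPM. The inhibitors of E proteins had 44.8 and 52.3 CPM for *Id2*, and 30.3 and 49 CPM for *Id3*, *Tox* had 51.7 and 76 CPM, and *Prdm1*, which encodes Blimp-1, had 16.4 and 9.16 CPM. Among the interferon regulatory factors *Irf8* stood with *Irf4* at 354 and 298 CPM, above 136 and 137 CPM for *Irf1*, and 114 and 119 CPM for *Irf2*. *Irf4* and *Irf8* overlapped between libraries. Several of these factors, *Satb1*, *Foxp1*, *Tcf7*, *Lef1*, *Bach2*, *Ikzf2* and *Foxp3* among them, share annotated ground with other counted genes.

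**Figure D3:**
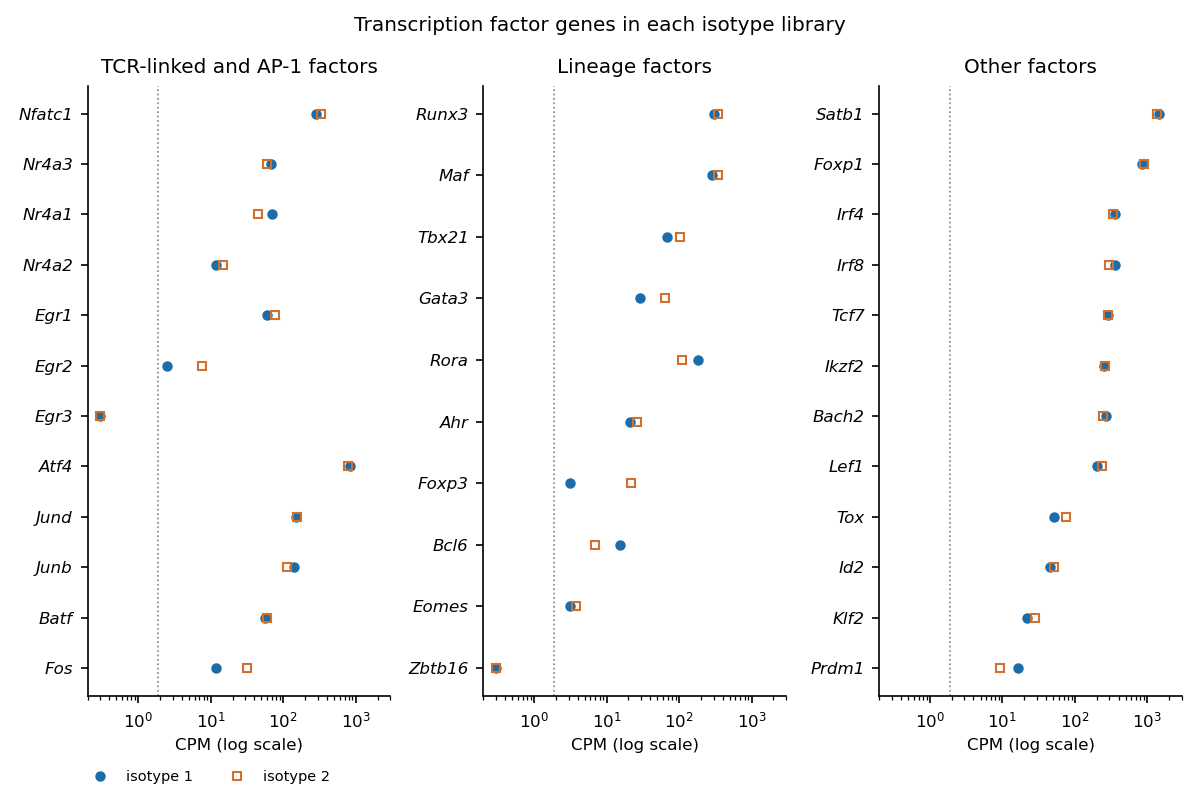
CPM (x axis, log scale) of 34 transcription factor genes in isotype 1 (filled circles) and isotype 2 (open squares), with 0 drawn at 0.3 and the dotted line at 3 reads of isotype 1 (1.89 CPM). *Satb1*, *Foxp1* and *Atf4* lie highest, and *Foxp3*, *Egr2*, *Fos* and *Gata3* show the widest gaps between libraries.

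Costimulatory receptors were detected for 23 of 27 genes. After *Icos* stood *Cd28*, the classical costimulator, with 348 and 413 CPM, and *Cd2*, an adhesion receptor that binds CD48, with 446 and 362 CPM, and these 2 overlapped between libraries. Among receptors of the TNF family, *Tnfrsf4* was above *Tnfrsf18* (GITR) at 159 and 146 CPM, and *Tnfrsf18* above *Cd27* at 119 and 77.6 CPM in both libraries. *Tnfrsf9*, which encodes 4-1BB, had 79.5 and 86.7 CPM. *Tnfrsf14*, which encodes HVEM, the partner of BTLA, had no read in either library, where the detection limit was 1.89 and 1.62 CPM. *Cd28* was higher in isotype 2 (adjusted p = 0.0375, exact binomial test), and *Cd2* and *Cd27* in isotype 1 (adjusted p = 0.00557 and 0.00563).

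The study stained PD1 and Lag3 protein on Timer+ cells after a first dose, and reported more responding cells when either was blocked. At the RNA level the inhibitory receptors spanned a wide range. The targets of the antibodies used elsewhere in the series were among the low ones. *Cd200*, a ligand for an inhibitory receptor on myeloid cells, led with 243 and 229 CPM. *Btla* had 137 and 123 CPM and *Ctla4* 94 and 81.3 CPM. *Pdcd1*, which encodes PD1, had 34 and 33 reads, or 21.5 and 17.8 CPM, and ranked 6199. *Lag3* had 7 and 14 reads, or 4.42 and 7.54 CPM, and ranked 8793. The 95% exact Poisson intervals were 14.9 to 30.0 and 12.2 to 25.0 CPM for *Pdcd1*, and 1.78 to 9.10 and 4.12 to 12.7 CPM for *Lag3*. *Pdcd1* was above *Lag3* in both libraries, and their intervals overlapped in isotype 2. *Tigit* had 3 and 4 reads and *Havcr2*, which encodes TIM-3, 0 and 3 reads. The ligands of PD1, *Cd274* (PD-L1) and *Pdcd1lg2* (PD-L2), were detected with 29.7 and 16.2 CPM for *Cd274*, and 32.2 and 23.7 CPM for *Pdcd1lg2*. *Icos* and *Ctla4* each overlap another counted gene on the same strand. By the exact binomial test 0 of the 12 detected genes of this list passed, where 6.4% of all genes did, so the count is near the background. *Cd274* alone had an unadjusted p under 0.05.

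The IL-2 receptor was the leading cytokine receptor. *Il2ra*, its high affinity α chain, had 572 CPM in isotype 1 and 616 CPM in isotype 2, above the β and common γ chains with 203 and 273 CPM for *Il2rb*, and 193 and 247 CPM for *Il2rg*. The receptors for IL-4 and IL-21 followed with 116 and 118 CPM for *Il4ra*, and 117 and 102 CPM for *Il21r*, and the IL-6 receptor chains with 70.7 and 119 CPM for *Il6ra*, and 79.5 and 112 CPM for *Il6st*. Both chains of the IL-12 receptor were low, *Il12rb1* at 32.2 and 37.2 CPM and *Il12rb2* at 23.3 and 17.2 CPM. *Il12rb2* overlaps the very abundant *Serbp1* on the opposite strand. *Il23r* had 22.1 and 8.62 CPM, *Il10ra* 3 and 6 reads, *Il18r1* 3 and 2 reads and *Il1rl1*, which encodes the IL-33 receptor, 0 and 4 reads. Of 36 receptor genes 27 were detected and 6 differed between the libraries by the exact binomial test, 4 of them higher in isotype 2, against 6.4% of all genes tested.

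Cytokine transcripts were scarce beside the receptors. Of 37 cytokine genes 11 were detected, and 17 had no read in either library. *Mif*, which is made by most cells, led with 476 and 460.1 CPM, then *Il16* with 123 and 95.9 CPM, *Lif*, a member of the IL-6 family, with 72.6 and 50.1 CPM and *Tgfb1* with 34.7 and 31.8 CPM. Those 4 were each separated from the next in both libraries. The effector cytokines were low, and the count of *Il10*, the site of the GFP reporter, was near the limit. Whether reads of the reporter allele were counted in *Il10* is not given in the sources used here. Among the detected cytokines only *Il1b* had a lower mean, and it was below *Il10* in both libraries. *Il21* had 34 and 21 reads, *Il2* 21 and 15 reads, *Ifng* 18 and 5 reads and *Il10* 7 and 5 reads. *Ifng* was higher in isotype 1 (adjusted p = 0.0439, exact binomial test), and the difference in *Il2* did not pass (adjusted p = 0.487). *Il4*, *Il5*, *Il13*, *Il17a*, *Il3*, *Il9* and *Csf2*, which mark TH2, TH17 and GM-CSF producing cells, had no read in either library. Each was therefore under the detection limit of 1.89 and 1.62 CPM. *Il17f* had 0 and 2 reads and *Il22* 1 and 0 reads. Of 17 ligands of the TNF family 9 were detected, and 6 had no read in either library. *Cd40lg*, which gives help to B cells, had 71.9 and 83 CPM, *Ltb* 67.5 and 80.8 CPM, *Tnfsf8* 58 and 77.6 CPM and *Tnf* 13.2 and 19.4 CPM. *Lta*, which encodes lymphotoxin α, had 37.9 and 84 CPM and was higher in isotype 2 (adjusted p = 1.47e-05).

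Chemokine transcripts were at or near the limit, while several of their receptors were well above it. Of 17 chemokine genes *Cxcl9* was the one detected, with 9 and 25 reads, while other members had 1 and 3 reads for *Ccl3*, 2 and 3 reads for *Ccl4*, and 6 and 2 reads for *Ccl5*. Among the migration receptors *Ccr7*, which guides cells to T cell zones, had 168 and 215 CPM, *Gpr174*, a lysophosphatidylserine receptor, 210.1 and 124 CPM, and *Gpr183*, an oxysterol receptor, 131 and 117 CPM. *Ccr7* was the highest in isotype 2 and *Gpr174* in isotype 1, so these cannot be ranked. *Ccr6* had 36 and 17.2 CPM, *Cxcr3* 20.8 and 23.2 CPM and *Cxcr5* 13.2 and 17.8 CPM, and *Cxcr6*, *Ccr8* and *Cx3cr1* had no read. Among adhesion genes *Itgal*, the α chain of LFA-1, had 294 and 344 CPM and *Cd44* 27.1 and 32.9 CPM, while *Itgae*, which encodes CD103, had 0 and 1 reads. Of 17 cytotoxic genes 10 were detected. *Srgn*, the granule proteoglycan that is not limited to killer cells, led with 536 and 480.0 CPM. *Gzmb* had 42.9 and 17.8 CPM and was higher in isotype 1 (adjusted p = 0.00184, exact binomial test), *Nkg7* had 13.9 and 14.5 CPM, and *Prf1* had no read.

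**Figure D4:**
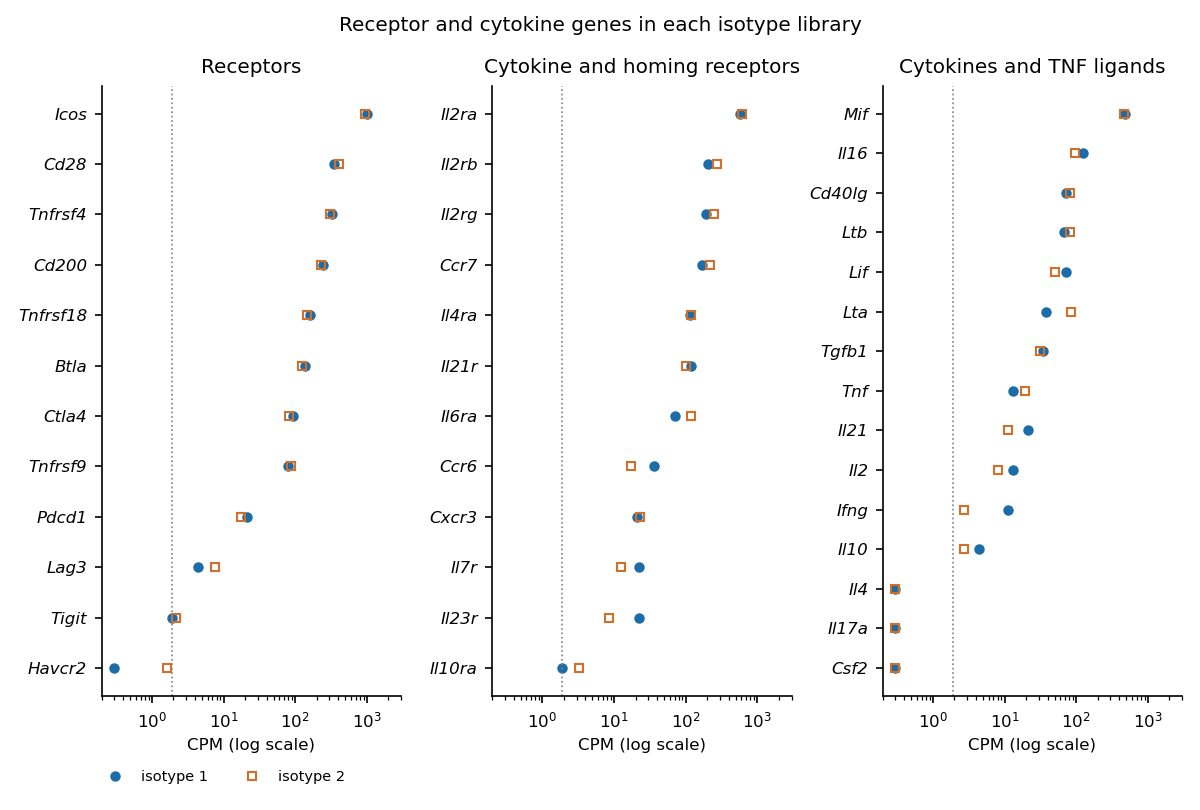
CPM (x axis, log scale) of 39 receptor, ligand and cytokine genes in isotype 1 (filled circles) and isotype 2 (open squares), with 0 drawn at 0.3 and the dotted line at 3 reads of isotype 1 (1.89 CPM). *Icos* and *Il2ra* lie between 572 and 991 CPM, *Pdcd1* between 17.8 and 21.5 CPM, and *Lag3*, *Tigit* and *Il10* close to the line.

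Repeated peptide dosing of Tg4 mice is known for type 1 regulatory (Tr1) cells, which make IL-10 without *Foxp3*. Of 20 genes linked to *Il10* and Tr1 cells 15 were detected, and their counts ran from abundant to near the detection limit. The factors *Irf4*, *Maf*, *Ikzf2*, *Bhlhe40* and *Ikzf3* were the high members. *Ikzf2*, which encodes Helios, had 256 and 259.7 CPM, *Bhlhe40* 94.6 and 74.9 CPM and *Ikzf3*, which encodes Aiolos, 64.4 and 71.1 CPM. Lower factors had 20.8 and 26.4 CPM for *Ahr*, and 14.5 and 10.2 CPM for *Nfil3*. The surface and secreted members were spread widely. *Ctla4* stood with *Bhlhe40*, *Gzmb* and *Pdcd1* lower, and *Lag3* and *Il10* near the detection limit. Those with still fewer reads included *Entpd1*, which encodes CD39, with 1 and 4 reads, *Nt5e*, which encodes CD73, with 0 and 1 reads, and *Itga2*, which encodes CD49b, with 0 and 1 reads. *Il27ra*, the receptor for IL-27, had 20.2 and 17.8 CPM.

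Genes of growth and division were among the most abundant beyond the leading 25. Of 30 genes of MYC and ribosome biogenesis 29 were detected, and they summed to 28367 and 27147 CPM. After *Ncl* and *Npm1*, the nucleolar helicase *Ddx21* had 2449 and 2531 CPM, and the small nucleolar ribonucleoprotein genes had 1462 and 1639 CPM for *Dkc1*, and 1314 and 1281 CPM for *Nop58*. *Myc* itself had 71.9 and 78.1 CPM. All 19 translation factors were detected and summed to 21142 and 21839 CPM. Of 42 genes of proliferation 41 were detected and summed to 14891 and 15250 CPM. Genes of chromosome untangling, replication licensing and the Ki-67 antigen had 2104 and 2125 CPM for *Top2a*, 1196 and 1345 CPM for *Mcm7*, and 1023 and 829.6 CPM for *Mki67*. *Ccnd2*, the D-type cyclin of lymphocytes, had 1649 and 2191 CPM and was higher in isotype 2 (adjusted p = 7.17e-27, exact binomial test), while *Ccnd1* had 1 and 0 reads. Mitotic genes were lower, with 167 and 148 CPM for *Plk1*, 89 and 89.4 CPM for *Ccnb1*, and 41 and 28.6 CPM for *Aurkb*. Of the CDK inhibitors, *Cdkn1b* had 63.1 and 39.3 CPM and *Cdkn1a* 4.42 and 3.77 CPM.

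Of 24 glycolysis genes 23 were detected. Lactate dehydrogenase and pyruvate kinase led with 1081 and 1126 CPM for *Ldha*, and 931 and 952 CPM for *Pkm*, and *Hk2*, the inducible hexokinase, had 327 and 269 CPM. *Slc2a1*, which encodes the glucose carrier GLUT1, had 36.6 and 29.1 CPM. Enzymes that act upstream of *Pkm* spanned a wide range, from 452 and 461 CPM for *Aldoa*, 242 and 262 CPM for *Pfkp*, 189 and 226 CPM for *Gpi1*, and 159.6 and 162 CPM for *Tpi1* down to 17.7 and 8.62 CPM for *Pgk1*, and 12.6 and 5.39 CPM for *Pgam1*. Whether the low counts lost reads to near-identical copies was not tested. The genes of amino acid and iron uptake had 287 and 336 CPM for *Slc3a2*, and 255 and 317 CPM for *Tfrc*. Chaperones and stress genes were detected for 24 of 26. Those of the cytosol, mitochondria and endoplasmic reticulum had 2023 and 2173 CPM for *Hsp90aa1*, 1235 and 1232 CPM for *Hspd1*, and 1042 and 969 CPM for *Hspa5*. Targets of *Atf4* were uneven, with *Psat1* at 367 and 366 CPM, *Mthfd2* at 659 and 704 CPM, *Trib3* at 36.6 and 51.7 CPM and *Asns* at 36 and 21 CPM.

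Survival and interferon genes were present too. The genes that protect from apoptosis had 348 and 336 CPM for *Mcl1*, and 155 and 168 CPM for *Bcl2*, and *Bcl2l11*, which encodes the killer protein BIM, had 65 and 64.1 CPM. Of 36 interferon stimulated genes 35 were detected. They were led by the immunoproteasome gene *Psmb8* at 432 and 392 CPM, and further members had 229 and 219.8 CPM for *Isg15*, and 223 and 207 CPM for *Ifi27l2a*. *Ifit3*, *Mx1* and *Rsad2* were near the limit, with 5 and 16 reads for *Ifit3*, 7 and 8 reads for *Mx1*, and 8 and 21 reads for *Rsad2*. All 20 genes of MHC class I were detected, led by *B2m* at 2401 and 2451 CPM, with 1021 and 1035 CPM for *H2-D1*, and 996 and 931 CPM for *H2-K1*. Genes that STAT5 induces and that dampen cytokine signals had 53 and 74.9 CPM for *Cish*, and 50.5 and 53.3 CPM for *Socs1*. *Socs2* had 15.8 and 38.2 CPM and was higher in isotype 2 (adjusted p = 0.00453, exact binomial test). *Mbp*, the gene of the antigen's parent protein, was itself transcribed at 82.7 and 115 CPM.

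Where the 2 isotype libraries parted by most, the genes were mixed in kind. Among genes that differed by the exact binomial test and had at least 50 reads over both libraries, the largest ratios toward isotype 1 were those of *Gm47283* with 191 and 39 reads (log2 ratio -2.52, adjusted p = 1.82e-27), *Actg1* with 101 and 32 reads, *Anks1* with 40 and 13 reads, *Rnf121* with 43 and 17 reads and *Rnaseh2a* with 64 and 26 reads. The largest toward isotype 2 were *Zbtb41* with 9 and 48 reads (log2 ratio 2.19, adjusted p = 0.000298), *Zfp346* with 10 and 53 reads, *Chac1*, a glutathione-degrading target of the stress response, with 14 and 69 reads, *Scnm1* with 11 and 50 reads and *Hcfc2* with 12 and 50 reads. Of the 627 genes called, 204 differed by more than 2-fold and 385 by more than 1.5-fold. The share called rose with the level, from 1.57% under 10 CPM to 29.7% above 1000 CPM, where smaller ratios pass the test. *S100a6* and *S100a8* were also higher in isotype 2, with 7 and 36 reads for *S100a6*, and 7 and 27 reads for *S100a8*, and the part of other cells in these differences was not tested.

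**Figure D5:**
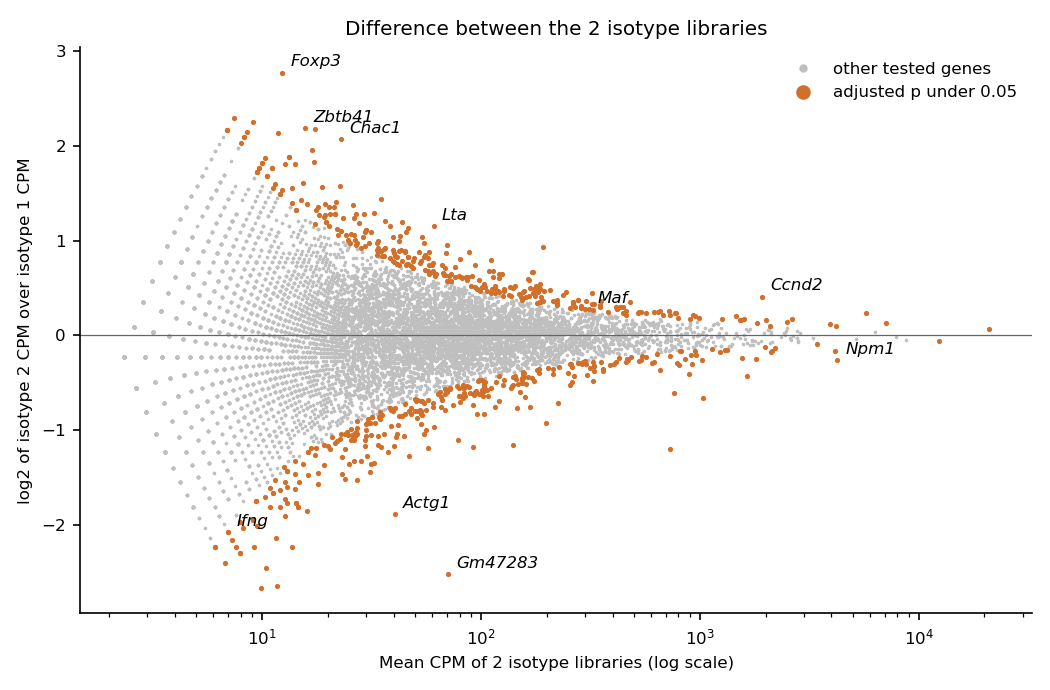
Log2 ratio of isotype 2 over isotype 1 CPM (y axis) against mean CPM (x axis, log scale) for the 9793 detected genes, with the 627 genes at an adjusted p under 0.05 in orange. The cloud narrows with the level, and *Foxp3*, *Zbtb41*, *Chac1*, *Ifng*, *Actg1* and *Gm47283* lie farthest from 0 among the genes marked.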

How the data were processed

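RNA of *Nr4a3*-Blue+Red+ CD4+ T cells was sequenced as QuantSeq 3′ forward libraries, 2 per group in 3 groups. After trimming, the authors aligned the reads to GRCm38 (mm10) with STAR 2.5.2a and tallied them over genes with HTSeq; the deposited counts are whole reads without normalization, and the annotation release and strand setting are not given in the sources used here. The rlog values (log2 scale), which the authors made with DESeq2, served in an alternative ranking only. A further batch of 3 samples, which the study excluded as an outlier, was not analysed here.

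Counts of the 2 isotype libraries were divided by their totals without *Gm42418*, *mt-Rnr1* and *mt-Rnr2*, per 1000000 reads. Identifiers were named from GENCODE annotation of GRCm38 (47224 of 47643 matched). Libraries of 1584960 and 1856285 reads make genes of a few reads imprecise. Intervals are exact Poisson at 95%, and the binomial test and edgeR 4.0.16 dispersion were tested on simulated counts. Genes named are the 25 highest, members of 49 lists, the 5 largest library differences each way with at least 50 reads over both libraries, and TCR segments, a few of which are not reported here; *Rpl3l*, *Rpl10l* and the genes of printed sequences were chosen after their values were seen. Members and lists were chosen with earlier results of these data known. Alternatives were other detection limits, TMM, DESeq2 1.42.0 size factors, totals over all genes, and each library alone; the A and T windows and starts were added after the data were seen. Figures used matplotlib 3.10.9.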

Additional observations from a re-analysis of the deposited data

How the results depend on the processing

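The number of detected genes (9793) was 11553 with at least 1 read in both libraries, 8360 with at least 10, 7757 with a mean of at least 10 CPM and 14220 with a read in either, and 10417 to 10663 from a single library. Of the 50 most abundant genes, between 45 and 50 were shared under TMM, DESeq2 size factors, totals over all genes, the rlog values and totals without the mitochondrial chromosome, and 48 with either library alone. Genes differing between the libraries numbered 619 to 748, against 627, under both scalings and both other filters. Over all genes, with the 3 structural RNAs in the total, the median level of the 617 detected genes of the lists was 0.73 of that reported, and 486 of them moved by more than the SD between libraries. TMM and DESeq2 size factors moved none of them by that much, and a single library gave a median of 0.993 to 1.01 of the level. Spearman's rho with A in the richest coding window ran from 0.238 to 0.248. No paired analysis was possible because no groups were compared. With 2 libraries, genes under 10 CPM are the least precise.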
